A study of Mus musculus with 12 samples.

Results

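The keratin genes of the mouse were taken as every gene whose symbol is Krt followed by digits only, which gave 50 genes among the 50600 gene identifiers of the tables. The rule leaves out keratins spelled with a letter, such as Krt6a, and the keratin associated proteins. The 50 genes comprise 26 type I and 24 type II keratins, and 25 lie on chromosome 11 and 25 on chromosome 15. They were measured by RNA sequencing of medullary thymic epithelial cells (mTECs) in 12 libraries of a study that compared Psmb11-deficient with wild type (WT) mice. Psmb11 encodes beta5t, a proteasome subunit found in cortical epithelial cells of the thymus.

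By their level of MHC class II the cells are labelled as high (mTEC hi, 6 libraries) or low (mTEC lo, 6 libraries). Psmb11-deficient mice (Psmb11-/-) and WT mice (Psmb11 +/+) are both given the strain background B6.B6CB-Psmb11tm1Smta, and all mice were 6 to 8 weeks old. The labels name a single genotype in 8 libraries, 2 Psmb11-deficient and 2 WT for each cell type. For the remaining 4, title and source name contradict each other on genotype. Those 4 entered the comparison of cell types but not the main comparison of genotypes. Separate animals behind the libraries are not stated in the labels, so p-values measure only the spread between libraries, which may be technical.

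Keratins form the intermediate filaments of epithelial cells. Each filament is built from pairs of an acidic type I and a basic type II protein, and epithelia differ in which pairs they make: KRT5 with KRT14 in basal layers, KRT1 with KRT10 in the epidermis above, KRT8 with KRT18 in simple epithelia, and separate sets in hair and nail. The thymic medulla is an epithelium that is classically marked by KRT5 and KRT14, and mTEC hi cells that make the regulator AIRE transcribe many genes of other tissues at low level, which exposes developing T cells to those antigens.

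Each library held between 38791960 and 86793594 reads in genes, and levels are given as CPM, read counts scaled to a common library size by TMM, or as the authors' TPM where genes are compared with each other. Psmb11 had 0.847 and 1.30 CPM in Psmb11-deficient mTEC hi, against 10.3 and 7.54 CPM in WT mTEC hi, and 1.63 and 1.17 CPM in Psmb11-deficient mTEC lo, against 12.2 and 7.51 CPM in WT mTEC lo. All 5 markers of mTEC hi (Aire, Fezf2, Cd80, Cd86, H2-Aa) were higher in mTEC hi, with a sum of 8020 to 8410 CPM in mTEC hi, against 2170 to 2500 CPM in mTEC lo, and all 3 markers of mTEC lo (Ccl21a, Pdpn, Itgb4) were lower, with 378 to 430 CPM in mTEC hi, against 4050 to 5210 CPM in mTEC lo. Markers of other cells were read beside the keratins, and their part in the results was not tested. The 3 epithelial markers (Epcam, Cdh1, Cldn4) summed to 1370 to 1580 CPM in mTEC hi, against 2120 to 2360 CPM in mTEC lo. The 4 tuft cell markers, all 4 lower, summed to 172 to 239 CPM in mTEC hi, against 819 to 1200 CPM in mTEC lo, and the 4 cortical epithelial markers, 1 higher and 3 lower, to 338 to 399 CPM in mTEC hi, against 1790 to 2280 CPM in mTEC lo. The 5 leukocyte markers, 3 higher and 1 lower, summed to 34.2 to 54.5 CPM in mTEC hi, against 26.8 to 38.2 CPM in mTEC lo, and the 3 fibroblast markers, 1 higher and 2 lower, to 113 to 132 CPM in mTEC hi, against 158 to 228 CPM in mTEC lo. The 3 endothelial markers, 1 of them lower, summed to 22.8 to 38.1 CPM in mTEC hi, against 19.0 to 35.6 CPM in mTEC lo, and the 3 erythroid markers, all higher, to 14.6 to 17.3 CPM in mTEC hi, against 1.21 to 2.14 CPM in mTEC lo. None of these marker genes was without reads in either cell type.

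The first comparison asked how keratin mRNA differs between the cell types. The basal pair Krt5 and Krt14 fell in mTEC hi by 2.66 and 2.91 on the log2 scale, while every inner root sheath, hair, suprabasal and mucosal keratin in the table rose. Of the 50 keratins, all of which passed the filter on low counts, 38 were higher in mTEC hi, 6 were lower and 6 did not pass the edgeR threshold (adjusted p under 0.05). Across the 23923 genes tested, 44.2% were higher and 38.0% lower, 82.1% in all. A call by itself therefore does not set a keratin apart from other genes. The keratins' median log2 fold change was 3.07, against 0.08 over all genes tested, and 26 of the 50 rose 8-fold or more, against 18.0% of all genes. The 6 libraries of mTEC hi and the 6 of mTEC lo did not overlap in 42 of the 50 genes, against 68.8% of all genes. Of the 50, 18 reached the minimum of the filter in all 6 libraries of mTEC hi but not of mTEC lo. These 18, which include inner root sheath and hair members, passed the filter only through mTEC hi, so their direction is no result of its own. The median and the number of 8-fold rises include them. Scaling by library size alone moved the median of all genes to 0.37 and called 44 keratins higher and 6 lower (54.0% and 26.5% of all genes), with Krt8, Krt15, Krt23, Krt75, Krt80 and Krt88 among the higher ones. A test for a minimum change of 1.5-fold no longer called Krt16, Krt78 and Krt79, while it called 41 of 50 keratins and 54.2% of all genes. In bulk libraries, fewer cells that express a gene and less RNA per cell cannot be told apart.

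**Figure D1:**
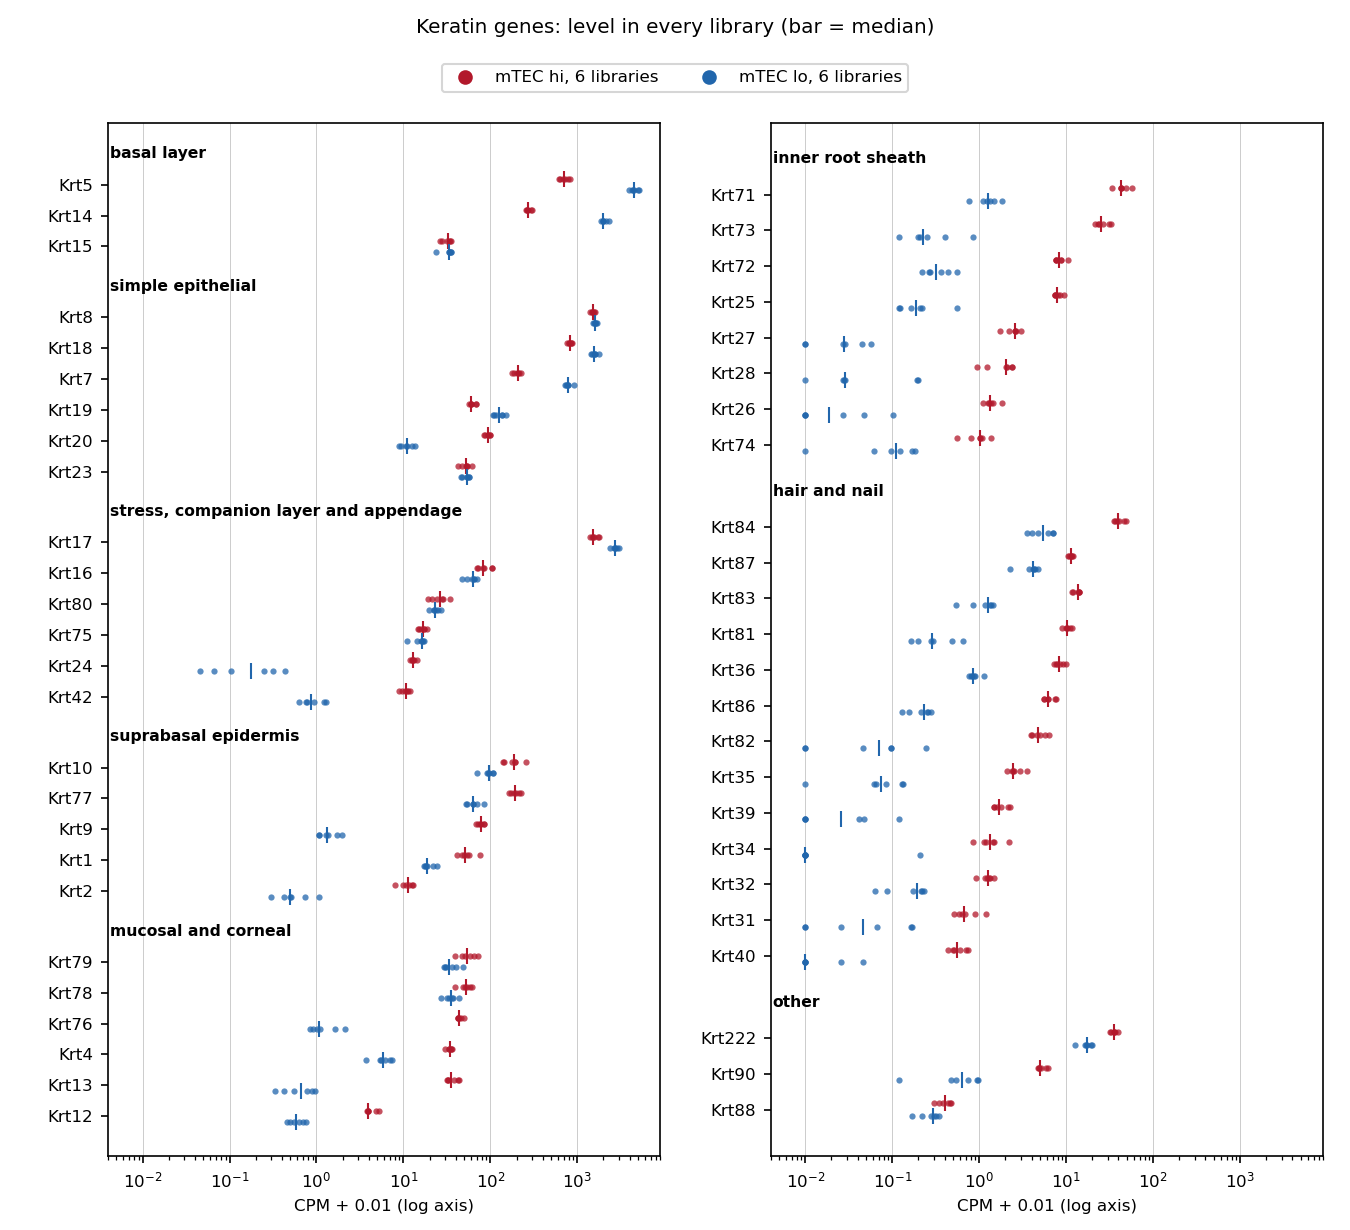
Level of each of the 50 keratins in every library, as CPM plus 0.01 on a log axis, in role classes; each point is a library and each bar the median of 6 libraries. Krt5 and Krt14 sit to the left in mTEC hi, Krt8, Krt15 and Krt23 overlap between mTEC hi and mTEC lo, and the inner root sheath and hair keratins stand to the right in mTEC hi with no overlap.

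Of the 3 basal layer keratins 2 fell and none rose. Krt5 (chr15:101707070-101712898), the type II partner of basal keratinocytes, had a lowest, median and highest level of 623, 711 and 834 CPM in mTEC hi, against 3949, 4436 and 5084 CPM in mTEC lo. It was 6.31-fold lower in mTEC hi (edgeR log2 fold change -2.66 ± 0.08 SE, adjusted p = 8.84e-15). Krt14 (chr11:100203162-100207548), its type I partner, had 256, 268 and 298 CPM in mTEC hi, against 1879, 1997 and 2344 CPM in mTEC lo. It was 7.5-fold lower (edgeR log2 fold change -2.91 ± 0.07 SE, adjusted p = 2.51e-16). For both genes every mTEC hi library lay under every mTEC lo library. The TPM ratio of Krt5 to Krt14 was 1.99 to 2.31 in mTEC hi and 1.84 to 1.99 in mTEC lo. Krt15, a basal keratin also known from the hair follicle bulge, did not pass the test: it had 26.4, 32.5 and 34.9 CPM in mTEC hi, against 23.7, 33.8 and 35.3 CPM in mTEC lo, the groups overlapped, and its log2 fold change was -0.04 ± 0.08 SE (edgeR adjusted p = 0.614).

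Among the 6 simple epithelial keratins 3 fell, 1 rose and 2 did not pass the test. Krt8, the type II keratin of simple epithelia, had 1404, 1501 and 1605 CPM in mTEC hi, against 1505, 1598 and 1694 CPM in mTEC lo, with overlapping libraries (edgeR log2 fold change -0.08 ± 0.05 SE, adjusted p = 0.175). Its usual partner Krt18 had 754, 825 and 877 CPM in mTEC hi, against 1445, 1557 and 1765 CPM in mTEC lo. Krt18 was 1.89-fold lower (edgeR adjusted p = 1.65e-10), with every mTEC hi library under every mTEC lo library. The TPM ratio of Krt8 to Krt18 was 1.51 to 1.61 in mTEC hi and 0.833 to 0.970 in mTEC lo. Krt7, a keratin of ducts and glands, had 179, 206 and 223 CPM in mTEC hi, against 720, 776 and 923 CPM in mTEC lo, 3.89-fold lower without overlap (edgeR adjusted p = 2.60e-14). Krt19, a type I keratin of simple epithelia without the usual tail domain, averaged 62.4 ± 5.21 CPM in mTEC hi, against 126 ± 16.8 CPM in mTEC lo, 2.03-fold lower in mTEC hi (± is the SD of 6 libraries here and below, edgeR adjusted p = 2.77e-09). Krt20, known from gut epithelium and Merkel cells, moved the other way. It averaged 92.8 ± 6.80 CPM in mTEC hi, against 11.1 ± 1.87 CPM in mTEC lo, 8.37-fold higher (edgeR adjusted p = 1.75e-15), with its lowest mTEC hi library at 83.5 CPM, against 13.7 CPM in the highest of mTEC lo. Krt23 averaged 51.7 ± 6.60 CPM in mTEC hi, against 52.1 ± 4.77 CPM in mTEC lo (edgeR adjusted p = 0.896).

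The 6 keratins of stress, companion layer and appendages were split, with 3 higher, 1 lower and 2 not called. Krt17, which is induced in wounded epidermis and made in skin appendages, had 1413, 1528 and 1798 CPM in mTEC hi, against 2395, 2695 and 3036 CPM in mTEC lo. All mTEC hi libraries lay under all mTEC lo libraries, and it was 1.72-fold lower (edgeR adjusted p = 2.79e-08). Krt16, another wound keratin, had 70.7, 83.4 and 103.9 CPM in mTEC hi, against 47.1, 62.7 and 69.6 CPM in mTEC lo, a small rise of 1.43-fold whose groups were separated by little (edgeR adjusted p = 0.00027). Krt24 had 11.8, 12.7 and 14.3 CPM in mTEC hi, against 0.0363, 0.168 and 0.430 CPM in mTEC lo, 65.7-fold higher (edgeR log2 fold change 6.04 ± 0.28 SE, adjusted p = 1.40e-12). Krt24 passed the filter on low counts only through mTEC hi, so its direction is no result of its own. Krt42, a type I keratin known from mouse nail, averaged 10.6 ± 1.18 CPM in mTEC hi, against 0.925 ± 0.266 CPM in mTEC lo, 11.3-fold higher (edgeR adjusted p = 7.91e-13). Krt80 had 19.4, 26.2 and 34.4 CPM in mTEC hi, against 19.4, 23.2 and 27.2 CPM in mTEC lo (edgeR adjusted p = 0.269), and Krt75, the companion layer keratin, averaged 16.5 ± 1.45 CPM in mTEC hi, against 15.3 ± 2.33 CPM in mTEC lo (edgeR adjusted p = 0.325). The groups overlapped for both.

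All 5 suprabasal keratins of the epidermis rose, by amounts that differed widely. Krt9 (chr11:100186781-100193246), the keratin of palm and sole skin, had 68.5, 77.4 and 84.9 CPM in mTEC hi, against 1.05, 1.31 and 1.98 CPM in mTEC lo. It was 55.5-fold higher (edgeR log2 fold change 5.79 ± 0.10 SE, adjusted p = 1.13e-17), and its gene lies 9915 bases from Krt14, which fell. Krt2, made in the upper epidermis, averaged 10.9 ± 1.78 CPM in mTEC hi, against 0.579 ± 0.272 CPM in mTEC lo, 19.0-fold higher (edgeR adjusted p = 1.19e-11). Krt77, known from human sweat ducts, had 163, 192 and 224 CPM in mTEC hi, against 52.4, 62.8 and 84.6 CPM in mTEC lo, 3-fold higher (edgeR adjusted p = 2.24e-10). Krt10, the type I keratin of early epidermal differentiation, had 139, 185 and 260 CPM in mTEC hi, against 69.5, 95.8 and 107 CPM in mTEC lo, 1.96-fold higher (edgeR adjusted p = 2.09e-06). Its type II partner Krt1 averaged 54.3 ± 12.2 CPM in mTEC hi, against 19.7 ± 2.87 CPM in mTEC lo, 2.75-fold higher (edgeR adjusted p = 6.17e-09). No mTEC hi library overlapped with mTEC lo for any of the 5. The antisense gene Gm11940 overlaps Krt10 and averaged 0.183 CPM in mTEC hi, against 0.0990 CPM in mTEC lo, far below Krt10 in both.

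The 6 mucosal and corneal keratins all rose. Krt13, the type I keratin of oral and oesophageal lining, had 31.5, 35.6 and 43.1 CPM in mTEC hi, against 0.326, 0.655 and 0.944 CPM in mTEC lo, 56.9-fold higher (edgeR log2 fold change 5.83 ± 0.17 SE, adjusted p = 3.52e-15). Its type II partner Krt4 averaged 34.0 ± 2.32 CPM in mTEC hi, against 5.83 ± 1.30 CPM in mTEC lo, 5.91-fold higher (edgeR adjusted p = 1.97e-13). The TPM ratio of Krt4 to Krt13 was 0.598 to 0.824 in mTEC hi and 2.93 to 17.5 in mTEC lo, where the Krt13 level was low. Krt76, a keratin of the palate, had 42.3, 43.4 and 49.1 CPM in mTEC hi, against 0.840, 1.05 and 2.13 CPM in mTEC lo, 35.1-fold higher (edgeR adjusted p = 1.81e-15). Krt12, the corneal keratin, averaged 4.29 ± 0.613 CPM in mTEC hi, against 0.591 ± 0.121 CPM in mTEC lo (edgeR adjusted p = 1.35e-11). The antisense gene A830036E02Rik overlaps Krt12 and averaged 9.80 CPM in mTEC hi, against 3.84 CPM in mTEC lo, and the counts use no strand. RSEM gave 1.39 expected counts for each read counted in Krt12, against a median of 0.453 over the keratins, so the level of Krt12 is uncertain. Krt79, made in the ducts of sebaceous glands in mouse skin, had 39.1, 54.3 and 71.4 CPM in mTEC hi, against 29.5, 33.5 and 48.7 CPM in mTEC lo (1.54-fold, edgeR adjusted p = 0.000681). Krt78 had 38.9, 52.9 and 61.4 CPM in mTEC hi, against 27.1, 35.1 and 43.6 CPM in mTEC lo (1.49-fold, edgeR adjusted p = 5.78e-05). Both of these rises were small, and some mTEC hi libraries lay within the range of mTEC lo.

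The 8 inner root sheath keratins, which line the growing hair shaft, all rose, with log2 fold changes from 3.27 to 6.78 and no overlap of libraries. Krt27 (chr11:99345565-99351104), a type I member, had 1.75, 2.57 and 2.99 CPM in mTEC hi, against 0.0, 0.0180 and 0.0466 CPM in mTEC lo. In all, 928 reads were assigned to Krt27 in mTEC hi and 7 in mTEC lo, a ratio per gene read of 143 with an exact 95% interval of 69.2 to 357 that covers counting error only. Krt73, a type II member of the sheath cuticle, had 21.6, 25.3 and 32.5 CPM in mTEC hi, against 0.109, 0.219 and 0.829 CPM in mTEC lo, 82.8-fold higher (edgeR log2 fold change 6.37 ± 0.22 SE, adjusted p = 3.77e-14). Krt71, the type II member made in all layers of the sheath, had the highest counts of the class. It had 34.0, 43.1 and 57.7 CPM in mTEC hi, against 0.750, 1.27 and 1.81 CPM in mTEC lo, 35.2-fold higher (edgeR adjusted p = 2.21e-16). Krt72, of the sheath cuticle, averaged 8.46 ± 1.10 CPM in mTEC hi, against 0.344 ± 0.130 CPM in mTEC lo, 24.3-fold higher (edgeR adjusted p = 3.10e-13). The other type I members Krt25, Krt26 and Krt28 and the type II member Krt74, annotated as a pseudogene, had medians of 7.78, 1.34, 2.04 and 1.01 CPM in mTEC hi, against 0.176, 0.00860, 0.0184 and 0.0997 CPM in mTEC lo. Krt26, Krt27, Krt28 and Krt74 had no read in at least 1 mTEC lo library, so their mTEC lo levels rest on few reads. These 4, and Krt25 and Krt73 as well, missed the minimum of the filter in at least 1 mTEC lo library. They passed the filter only through mTEC hi, and their direction is no result of its own.

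RefSeq promoters on GRCm38.p6, from 250 bases before to 50 bases after the start of a gene, were matched for 35 of the 50 keratins. TATAAA, the core of the TATA box, was found on either strand in 18 of 35 (51.4%) and in 15.7% of 27025 genes. A gene counted if any of its promoters of that length held a match. All 7 inner root sheath promoters held it, as did 5 of 8 hair and nail promoters, with Krt72 and Krt84 holding it on the opposite strand only. None of the 4 promoters of keratins that fell (Krt5, Krt7, Krt14 and Krt18) held it. Of those 4, the windows of Krt7 and Krt14 lie more than 100 bases from the GENCODE start, so they do not describe that start. In 12 promoters it began between 31 and 25 bases before the start on the strand of the gene. TGANTCA, bound by AP-1 factors, was found in 1 of 35 (2.86%, against 8.97% of all genes), in Krt13. GCCNNNGGC, bound by AP-2 factors, was found in 7 of 35, against 18.5% of all genes. The start lay within 100 bases of the GENCODE start in 31 of the 35 genes, but not in Krt7, Krt8 and Krt14. The remaining gene, Krt13, has 2 RefSeq promoters, of which 1 starts at the GENCODE start. These matches describe letters in the window and not bound sites. The first 4 sequences below belong to keratins that rose and hold TATAAA within that stretch, and the last 2 to Krt9, which rose, and Krt5, which fell, neither of which holds it. Capitals mark TATAAA, and in Krt9 the GCCNNNGGC match. Reading is 5′ to 3′ on the strand of the gene.
Krt73 promoter, chr15:101802311-101802610, minus strand: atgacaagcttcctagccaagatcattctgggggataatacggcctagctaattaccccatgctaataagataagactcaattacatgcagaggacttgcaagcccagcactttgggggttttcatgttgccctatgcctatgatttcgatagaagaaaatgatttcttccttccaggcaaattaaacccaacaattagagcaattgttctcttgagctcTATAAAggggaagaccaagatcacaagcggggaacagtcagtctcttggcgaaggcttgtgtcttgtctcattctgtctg
Krt25 promoter, chr11:99322902-99323201, minus strand: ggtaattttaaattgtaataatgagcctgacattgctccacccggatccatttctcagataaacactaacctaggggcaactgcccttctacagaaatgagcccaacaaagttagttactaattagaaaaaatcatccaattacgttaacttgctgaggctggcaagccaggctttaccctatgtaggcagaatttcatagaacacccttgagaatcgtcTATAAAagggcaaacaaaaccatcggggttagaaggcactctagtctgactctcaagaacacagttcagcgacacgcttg
Krt28 promoter, chr11:99374854-99375153, minus strand: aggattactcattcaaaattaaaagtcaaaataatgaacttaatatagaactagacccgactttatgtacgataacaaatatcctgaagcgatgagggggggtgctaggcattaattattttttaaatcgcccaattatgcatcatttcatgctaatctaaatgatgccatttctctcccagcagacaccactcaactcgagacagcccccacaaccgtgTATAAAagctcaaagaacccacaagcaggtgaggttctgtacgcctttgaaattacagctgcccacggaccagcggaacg
Krt76 promoter, chr15:101892871-101893170, minus strand: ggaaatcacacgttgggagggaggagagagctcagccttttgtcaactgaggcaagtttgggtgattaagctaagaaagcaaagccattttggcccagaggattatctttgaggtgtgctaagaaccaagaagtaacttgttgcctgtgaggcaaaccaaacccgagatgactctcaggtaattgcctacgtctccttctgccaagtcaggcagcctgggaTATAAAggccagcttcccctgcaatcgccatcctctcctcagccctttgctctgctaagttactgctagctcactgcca
Krt9 promoter, chr11:100193197-100193496, minus strand: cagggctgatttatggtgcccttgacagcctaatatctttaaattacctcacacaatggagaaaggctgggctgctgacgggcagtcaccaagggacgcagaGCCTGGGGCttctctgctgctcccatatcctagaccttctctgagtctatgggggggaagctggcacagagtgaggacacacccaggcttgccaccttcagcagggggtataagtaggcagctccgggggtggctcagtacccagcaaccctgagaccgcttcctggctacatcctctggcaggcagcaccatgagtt
Krt5 promoter, chr15:101712856-101713155, minus strand: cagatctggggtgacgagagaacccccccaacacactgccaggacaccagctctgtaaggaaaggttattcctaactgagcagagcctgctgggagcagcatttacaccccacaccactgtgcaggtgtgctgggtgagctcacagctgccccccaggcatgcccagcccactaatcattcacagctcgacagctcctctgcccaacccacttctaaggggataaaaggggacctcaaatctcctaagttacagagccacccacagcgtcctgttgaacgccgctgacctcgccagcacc

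The 13 hair and nail keratins, which build the hard cortex and cuticle of hair and the nail plate, all rose without overlap, with log2 fold changes from 1.53 to 5.99. Krt84, a type II member known from the filiform papillae of the tongue, had 35.9, 39.5 and 48.3 CPM in mTEC hi, against 3.54, 5.44 and 7.12 CPM in mTEC lo, 7.63-fold higher (edgeR adjusted p = 2.03e-12). Krt83, of the hair cortex, had 11.6, 13.8 and 14.2 CPM in mTEC hi, against 0.526, 1.25 and 1.45 CPM in mTEC lo (12-fold, edgeR adjusted p = 3.54e-12). Krt87 had 10.4, 11.4 and 12.1 CPM in mTEC hi, against 2.25, 4.18 and 4.79 CPM in mTEC lo, the smallest rise of the class at 2.88-fold (edgeR adjusted p = 1.29e-08). Krt82, of the hair cuticle, had the largest fitted rise of the class, with 3.97, 4.79 and 6.29 CPM in mTEC hi, against 0.0, 0.0609 and 0.233 CPM in mTEC lo (edgeR log2 fold change 5.99 ± 0.37 SE, adjusted p = 7.93e-11). Krt81 and Krt86, close relatives of Krt83 in sequence, averaged 10.4 ± 0.940 and 6.43 ± 0.914 CPM in mTEC hi, against 0.334 ± 0.185 and 0.204 ± 0.0591 CPM in mTEC lo, and reads may be split among the 3 genes. At the low end, Krt40 had 214 reads in mTEC hi and 3 in mTEC lo, a ratio per gene read of 77.0 with an exact 95% interval of 26.0 to 377. The type I members Krt31, Krt32, Krt34, Krt35, Krt36 and Krt39 had medians between 0.656 and 8.17 CPM in mTEC hi and between 0.0 and 0.837 CPM in mTEC lo. Krt31, Krt34, Krt35, Krt39, Krt40 and Krt82 each lacked reads in an mTEC lo library. These genes, and Krt32, Krt81 and Krt86 as well, passed the filter only through mTEC hi, so their direction is no result of its own. The antisense gene Gm11571, which overlaps Krt32, averaged 0.157 CPM in mTEC hi, against 0.0214 CPM in mTEC lo.

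Of the 3 remaining members 2 rose. Krt222 had 31.7, 35.5 and 39.5 CPM in mTEC hi, against 12.7, 17.2 and 19.6 CPM in mTEC lo, 2.07-fold higher (edgeR adjusted p = 7.45e-09). Krt90 had 4.79, 5.01 and 6.10 CPM in mTEC hi, against 0.109, 0.631 and 0.961 CPM in mTEC lo, 8.47-fold higher (edgeR adjusted p = 1.37e-08). Neither gene overlapped between the cell types. Krt90 passed the filter only through mTEC hi, so its direction is no result of its own. Krt88 had 0.290, 0.397 and 0.463 CPM in mTEC hi, against 0.161, 0.282 and 0.339 CPM in mTEC lo, with overlapping libraries (edgeR adjusted p = 0.0839). The 4 keratins spelled with a letter went different ways. Krt6a, a wound and companion layer keratin, averaged 9.94 ± 3.54 CPM in mTEC hi, against 41.6 ± 6.48 CPM in mTEC lo (edgeR adjusted p = 4.51e-09), and its copy Krt6b 8.89 ± 1.85 CPM in mTEC hi, against 8.03 ± 1.96 CPM in mTEC lo (edgeR adjusted p = 0.367). The hair keratins Krt33a and Krt33b were higher in mTEC hi by 4.84 and 2.25 on the log2 scale. Krt33a also passed the filter only through mTEC hi, so its direction is no result of its own.

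On the authors' TPM scale, which divides by length, the 50 keratins together made up 6744 ± 419 TPM in mTEC hi and 11460 ± 483 TPM in mTEC lo (SD, n = 6 each). The sum ran from 6249 to 7311 TPM in mTEC hi, against 10680 to 12040 TPM in mTEC lo, so it was lower in every mTEC hi library while most keratin genes were higher. The basal layer class made up 14.9% ± 0.626 of keratin TPM in mTEC hi, against 45.3% ± 0.742 in mTEC lo, and the simple epithelial class made up 44.3% ± 1.44 in mTEC hi and 30.5% ± 1.24 in mTEC lo. Krt8 alone took 23.9% ± 0.678 in mTEC hi and 11.8% ± 0.518 in mTEC lo, with 1470 to 1691 TPM in mTEC hi, against 1306 to 1419 TPM in mTEC lo, while its read counts did not pass the test between the cell types. The suprabasal class made up 6.03% ± 0.671 in mTEC hi and 1.08% ± 0.151 in mTEC lo, the mucosal and corneal class 2.65% ± 0.0947 in mTEC hi and 0.368% ± 0.0524 in mTEC lo, and the hair and nail class 1.36% ± 0.0725 in mTEC hi and 0.0559% ± 0.00727 in mTEC lo. The inner root sheath class made up 1.13% ± 0.156 in mTEC hi and 0.00978% ± 0.00436 in mTEC lo. The inner root sheath and hair classes were thus a small part of keratin mRNA in both cell types. The share of 90% of keratin TPM took 10 to 11 genes in mTEC hi, against 5 in mTEC lo, and the ratio of type I to type II TPM was 1.33 to 1.38 in mTEC hi and 1.15 to 1.17 in mTEC lo.

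The order of the levels changed with it. In mTEC hi Krt17 led with 1671, 1781 and 1985 TPM, followed by Krt8, Krt18, Krt5 and Krt14, with medians of 1616, 1040, 652 and 303 TPM. In mTEC lo Krt5 led with 3086, 3420 and 3679 TPM, followed by Krt17, Krt14, Krt18 and Krt8, with medians of 2531, 1749, 1495 and 1332 TPM. In mTEC hi the ranges of Krt17 and Krt8 overlapped, while in mTEC lo each of the first 5 lay apart from the next. Further down, neighbours in the order mostly did not differ beyond their spread: of the 49 neighbouring pairs, 41 overlapped in mTEC hi and 40 in mTEC lo. The TPM ratio of Krt8 to Krt5 was 2.23 to 2.71 in mTEC hi and 0.357 to 0.429 in mTEC lo.

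**Figure D2:**
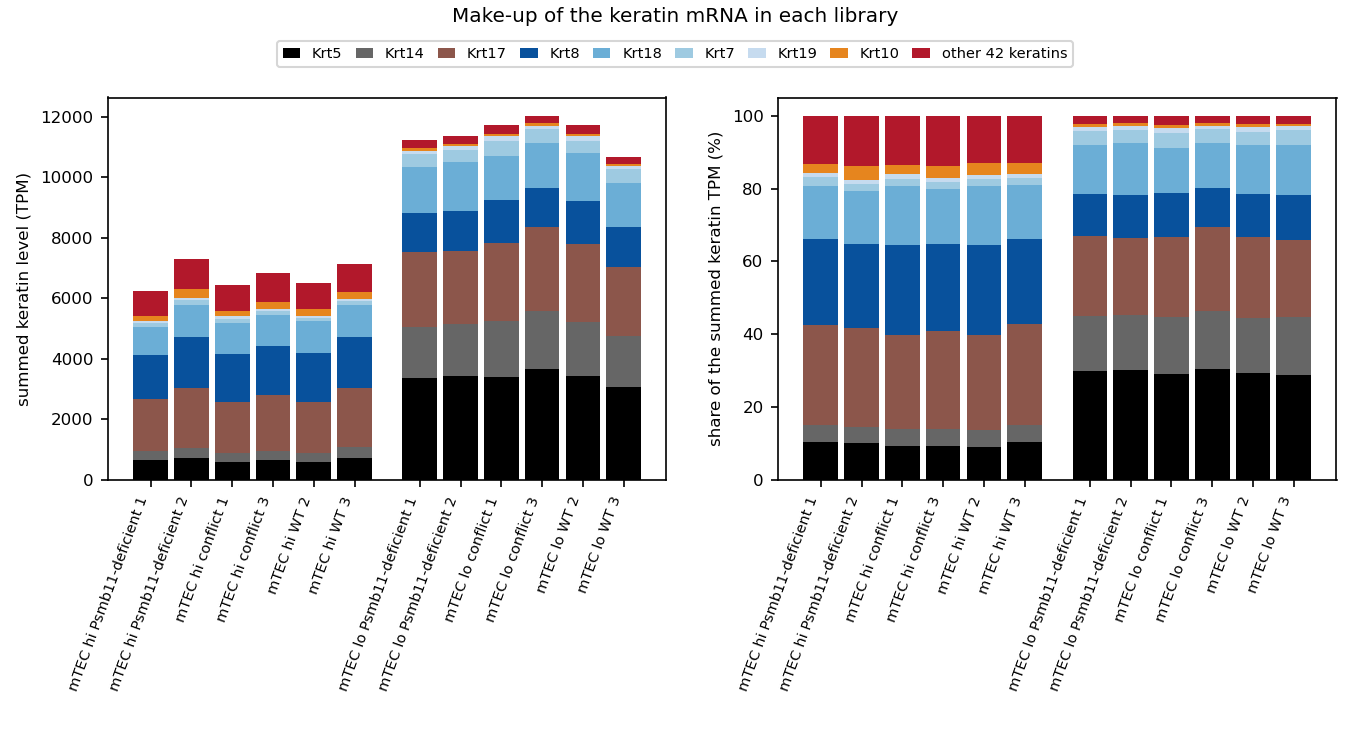
Summed TPM of the keratins in each library (left) and the share of each of 8 keratins in that sum (right, in percent), with mTEC hi libraries to the left of mTEC lo; "conflict" names the libraries whose genotype labels disagree. Krt5 and Krt14 shrink in mTEC hi, Krt8 takes a wider band there, and the other 42 keratins together form a band that is hardly visible in mTEC lo.

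The number of keratins with reads also differed. With every library thinned to 38791960 reads, all 50 keratins had at least 5 reads in each mTEC hi library, while 39 to 43 had them in mTEC lo (mean 40.0 ± 1.55, n = 6). At a minimum of 20 reads the numbers were 47 to 50 in mTEC hi and 30 to 31 in mTEC lo. A total of 24 keratins averaged under 1 CPM in mTEC lo, against 4 in mTEC hi, and 23 of those 24 rose. Members that passed the filter only through mTEC hi are among those 24, and their direction is no result of its own. The 6 that fell were all among the 19 genes of at least 10 CPM in mTEC lo, of which 8 rose. Across the 50 genes the log2 fold change and the mTEC lo level had a Spearman rho of -0.84, which is a description only, since the mTEC lo level enters both.

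Genes that lie next to each other often moved differently. The type I cluster on chromosome 11 runs from Krt222 (chr11:99232761-99244085) to Krt42 (chr11:100262882-100269871), and the chromosome 15 cluster from Krt80 (chr15:101347444-101370162) to Krt18 (chr15:102028180-102032027), the only type I gene there. Over 48 neighbouring pairs the log2 fold changes differed by a median of 2.02, against 2.62 over all 600 pairs within a cluster. The widest gap between neighbours was that of Krt9 and Krt14, 8.70 on the log2 scale. Krt71, which rose, lies 21050 bases from Krt5, which fell, with a gap of 7.80. Krt42 rose and Krt17, 1852 bases away, fell. Runs of like members stood beside these breaks: Krt24 to Krt28 all rose by at least 4.65 on the log2 scale, and so did Krt39 and Krt40. Every gene in these runs passed the filter only through mTEC hi, so their shared direction is no result of its own.

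**Figure D3:**
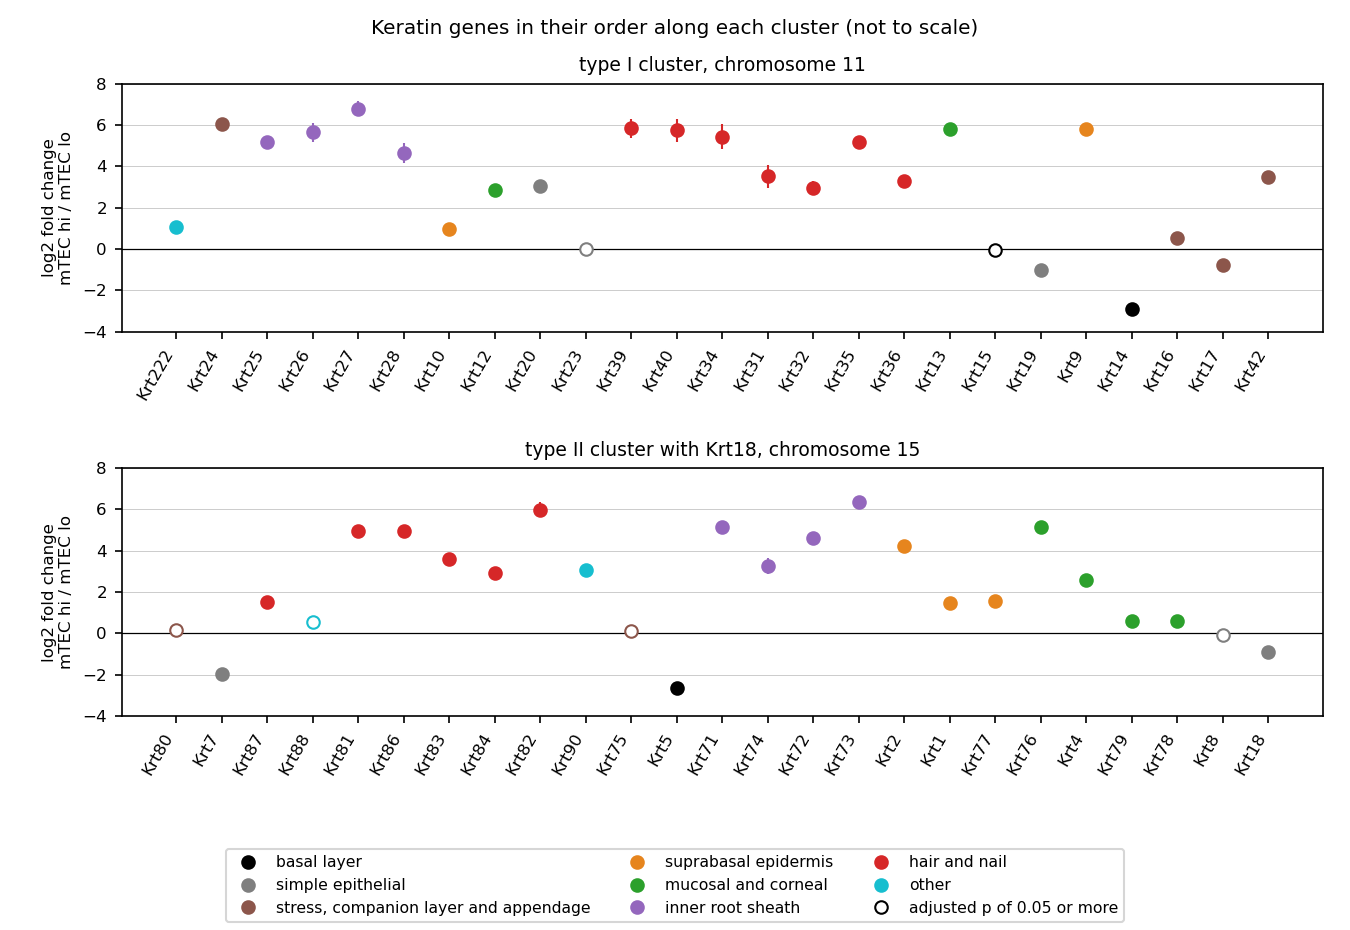
Log2 fold change of mTEC hi over mTEC lo for the 50 keratins in their order along each cluster (not to scale), coloured by role class; lines are 1 standard error and open symbols have an adjusted p of 0.05 or more. Krt14 and Krt5 stand below the zero line directly beside Krt9 and Krt71, which stand above 5.

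The partners of keratins in the cell were read from lists of known genes. Of 13 desmosome genes, whose proteins anchor keratin at cell contacts, 8 fell and 3 rose, with a median log2 fold change of -0.63. Over all genes tested 38.0% fell, 44.2% rose and the median was 0.08, so a call by itself does not set a listed gene apart. Dsc3, a desmosomal cadherin of basal layers, averaged 122 ± 12.6 CPM in mTEC hi, against 502 ± 61.9 CPM in mTEC lo (edgeR adjusted p = 2.66e-13), and Dsg1b, a desmosomal cadherin of upper layers, 65.7 ± 2.81 CPM in mTEC hi, against 14.5 ± 1.51 CPM in mTEC lo (edgeR adjusted p = 5.51e-16). Of 8 tested genes of hemidesmosomes, which tie keratin to the basement membrane, and of other filament linkers, 6 fell and 1 rose, with a median of -1.31. Cd151, a tetraspanin of hemidesmosomes, averaged 45.7 ± 3.24 CPM in mTEC hi, against 216 ± 16.9 CPM in mTEC lo, and the linker Dst 277 ± 32.4 CPM in mTEC hi, against 931 ± 155 CPM in mTEC lo (edgeR adjusted p = 6.23e-16 and 5.21e-13).

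Of 16 tested regulators of keratin genes 8 rose and 8 fell, with a median of -0.01. For this and the next lists, the shares over all genes were 44.2% higher and 38.0% lower, with a median of 0.08. Trp63, the p63 factor of basal cells, averaged 125 ± 6.86 CPM in mTEC hi, against 533 ± 17.9 CPM in mTEC lo (edgeR adjusted p = 3.31e-16). Lhx2, a hair follicle factor, averaged 2.39 ± 0.221 CPM in mTEC hi, against 0.0473 ± 0.0480 CPM in mTEC lo, and Elf5, an epithelial ETS factor, 10.4 ± 0.548 CPM in mTEC hi, against 1.61 ± 0.347 CPM in mTEC lo (edgeR adjusted p = 1.03e-10 and 1.32e-12). Lhx2 passed the filter only through mTEC hi, so its direction is no result of its own. Trp63 was named after its values were seen. Of 15 other intermediate filament genes 12 rose and 3 fell, with a median of 1.15. Prph, the filament of peripheral neurons, averaged 53.5 ± 4.25 CPM in mTEC hi, against 1.01 ± 0.210 CPM in mTEC lo, and Nefh, the heavy neurofilament, 39.0 ± 4.03 CPM in mTEC hi, against 2.05 ± 0.433 CPM in mTEC lo (edgeR adjusted p = 2.03e-17 and 1.16e-15). Of 14 genes for proteins that bundle or cross-link keratin in skin and hair 8 rose and 3 fell, with a median of 0.88. Tchhl1, related to the trichohyalin of the inner root sheath, averaged 4.06 ± 1.01 CPM in mTEC hi, against 0.0639 ± 0.0644 CPM in mTEC lo, and Padi3, an enzyme that converts arginines of such proteins, 4.88 ± 0.550 CPM in mTEC hi, against 0.230 ± 0.0872 CPM in mTEC lo (edgeR adjusted p = 3.66e-11 and 3.47e-12). Tchhl1 and Padi3 also passed the filter only through mTEC hi, so their direction is no result of its own. The counts and medians of these lists include such genes, Hoxc13 and Bfsp2 among them.

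Keratin associated proteins, the matrix in which hair keratin is set, were near the limit of detection. Of 58 genes, 11 passed the filter, all 11 only through their reads in mTEC hi, so their direction is no result of its own. Krtap5-4 had 146 reads in mTEC hi and none in mTEC lo, which puts the rise at 52.6-fold at least (floor of 3 reads for the whole group), and Krtap13 had 112 reads in mTEC hi and none in mTEC lo, a rise of at least 40.3-fold. The whole family summed to 8.60 to 10.8 CPM in mTEC hi, against 0.345 to 1.04 CPM in mTEC lo. The 5 markers of keratinised epithelium (Ivl, Lor, Flg, Krtdap, Sprr1b) summed to 110 to 149 CPM in mTEC hi, against 152 to 185 CPM in mTEC lo. Of these 5 genes only Krtdap fell, with a mean of 59.85 CPM in mTEC hi, against 110.6 CPM in mTEC lo. Sprr1b rose, with a mean of 13.4 CPM in mTEC hi, against 1.78 CPM in mTEC lo. Ivl, Lor and Flg did not pass the edgeR threshold, and none of the 5 was without reads.

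The second comparison asked whether loss of Psmb11 changed keratin mRNA within a cell type, with 2 libraries per group. No keratin passed the edgeR threshold in mTEC hi, where 1 gene of 26642 (0.00375%) did, or in mTEC lo, where 4 (0.015%) did, and DESeq2 called 0 of 50 keratins in mTEC hi and 0 of the 46 with an adjusted p in mTEC lo. At an unadjusted p under 0.05 the keratins numbered 1 of 50 in mTEC hi, against 3.45% of all genes, and 8 of 50 in mTEC lo, against 11.3% of all genes. With no filter on low counts edgeR called 4 of 50 keratins in mTEC lo (1.62% of all genes). It called 2 there when Psmb11-deficient mTEC lo replicate 1 was left out (0.92% of all genes) and 1 when replicate 2 was left out (1.13% of all genes). The median log2 fold change over the keratins was 0.08 in mTEC hi and 0.11 in mTEC lo. For 40 of 50 keratins in mTEC hi and 28 of 50 in mTEC lo the 95% interval lay within a 2-fold change in either direction.

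The abundant keratins were close between genotypes. Krt5 had 729 and 834 CPM in Psmb11-deficient mTEC hi, against 623 and 790 CPM in WT mTEC hi, and 4424 and 4927 CPM in Psmb11-deficient mTEC lo, against 4447 and 3949 CPM in WT mTEC lo. Its log2 fold change was 0.15 in mTEC hi (95% interval -0.12 to 0.43) and 0.15 in mTEC lo (-0.12 to 0.42). Krt8 had 1404 and 1605 CPM in Psmb11-deficient mTEC hi, against 1494 and 1566 CPM in WT mTEC hi, and 1545 and 1694 CPM in Psmb11-deficient mTEC lo, against 1622 and 1505 CPM in WT mTEC lo. For Krt5 and Krt8 the genotypes overlapped in both cell types.

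**Figure D4:**
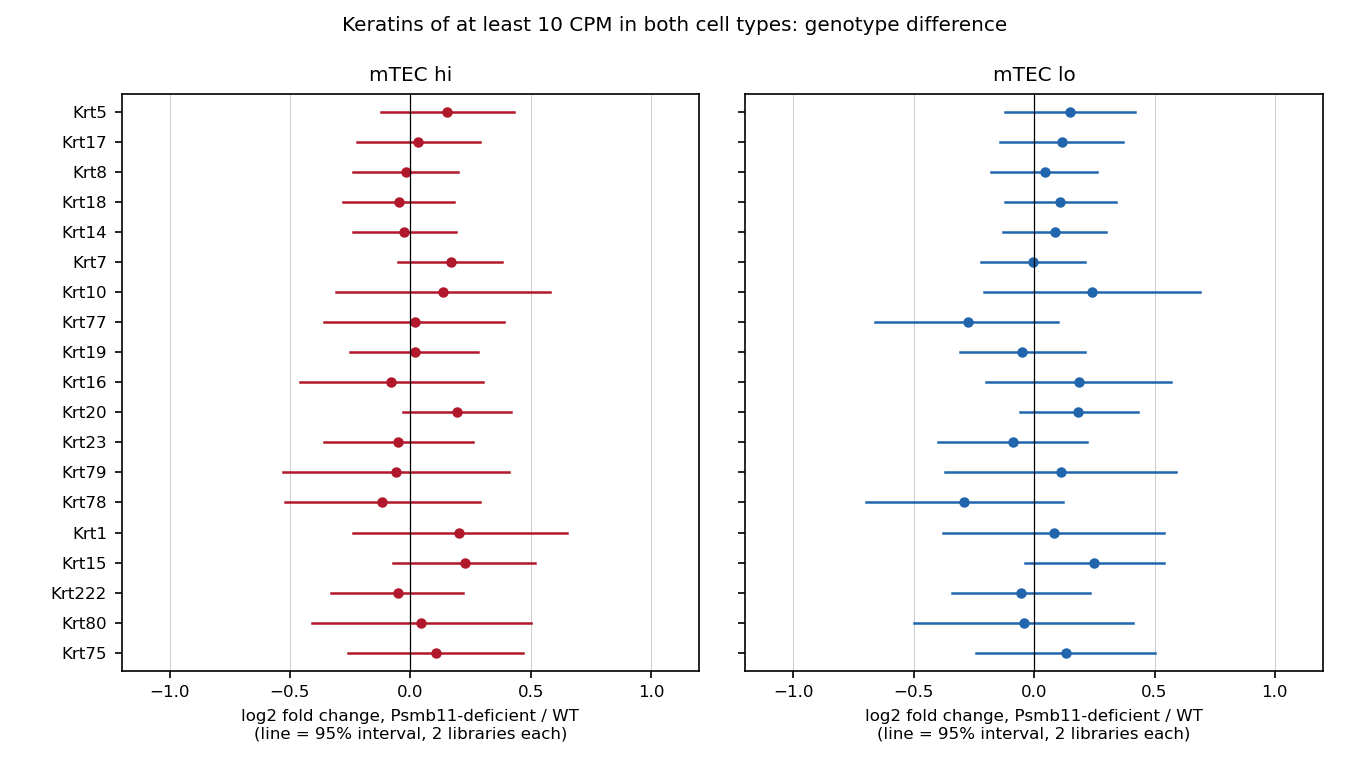
Log2 fold change of Psmb11-deficient over WT for the 19 keratins of at least 10 CPM in both cell types, with 95% intervals from the edgeR fit, 2 libraries per group. Every interval crosses 0 in both panels.

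The lowest p-values belonged to scarcer genes. In mTEC hi Krt71 had 57.7 and 49.3 CPM in Psmb11-deficient libraries, against 34.0 and 42.9 CPM in WT libraries (log2 fold change 0.49, 95% interval 0.10 to 0.87, edgeR adjusted p = 1.0). Krt13 had 42.5 and 43.1 CPM in Psmb11-deficient mTEC hi, against 31.5 and 32.7 CPM in WT mTEC hi, and Krt28 had 2.35 and 2.02 CPM in Psmb11-deficient mTEC hi, against 1.24 and 0.943 CPM in WT mTEC hi (edgeR adjusted p = 1.0 for both). All 3 were among the 16 of 50 keratins whose genotypes were separated in mTEC hi, and none passed the threshold. The share of all genes so separated was not counted, so the separation is no result of its own. The libraries with conflicting labels had 43.0 (title Psmb11-deficient) and 43.1 CPM (title WT) of Krt71. In the same order they had 32.7 and 38.5 CPM of Krt13, and 2.07 and 2.35 CPM of Krt28. These values did not widen the differences. In mTEC lo Krt76 had 2.13 and 1.0 CPM in Psmb11-deficient libraries, against 0.840 and 0.907 CPM in WT libraries (edgeR adjusted p = 0.298). Krt82 had 0.233 and 0.0864 CPM in Psmb11-deficient mTEC lo, against 0.0357 and 0.0 CPM in WT mTEC lo (edgeR adjusted p = 0.276), and Krt73 had 0.186 and 0.829 CPM in Psmb11-deficient mTEC lo, against 0.197 and 0.109 CPM in WT mTEC lo (edgeR adjusted p = 0.327). The mTEC lo values of Krt82 and Krt73 rest on few reads.

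The test of whether the genotype difference itself differed between mTEC hi and mTEC lo called no keratin with edgeR (0.0% of all genes). With no filter edgeR called 1, Krt28 (0.346% of all genes), and DESeq2 called 0 keratins and 5 other genes higher and 4 lower. At an unadjusted p under 0.05 the filtered edgeR test had 5 of 50 keratins, against 4.41% of all genes, and the 3 of lowest p were Krt28, Krt82 and Krt27 (edgeR adjusted p = 1.0 for each), none of which passed 0.233 CPM in any mTEC lo library.

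Libraries of the same group also differed from each other. Psmb11-deficient mTEC hi replicate 2 had the highest level of the 6 mTEC hi libraries for 24 of the 50 keratins, and for 21 of the 32 with at least 10 CPM there, including Krt1, Krt5, Krt10, Krt16 and Krt17. Psmb11-deficient mTEC hi replicate 1, of the same genotype, was highest for 4 and lowest for 14. Without replicate 2 the counts between mTEC hi and mTEC lo stayed at 38 higher and 6 lower. The coefficient of variation over 6 libraries had a median of 10.4% in mTEC hi for keratins of at least 10 CPM and of 13.4% in mTEC lo, while for those under 1 CPM in mTEC lo it was 66.6%.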

How the data were processed

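The labels name TRIzol and RNeasy for RNA extraction and TruSeq for library preparation. Per library, the authors deposited whole-number read counts per gene (not normalised), RSEM expected counts and TPM. Tools listed in the submitters' processing notes are CASAVA 1.8.2, STAR 2.5.1b and RSEM 1.2.28. Those notes name the build GRCh38 although all identifiers are mouse genes, and the sources used here give no annotation release. Both strand columns were equally full, and the unstranded counts were used. Reads in no feature made up 13.3 to 16.2% of reads in mTEC hi and 7.54 to 11.3% in mTEC lo, and their part in the results was not tested. RSEM totals came to between 0.507 and 0.535 of read totals.

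GENCODE M21 (GRCm38) supplied symbols and coordinates by stable identifier for 50376 of 50600 identifiers. All 50 keratins matched, 29 of them at the same version. The tests used R 4.3.3 and edgeR 4.0.16 over the whole table: a filterByExpr filter (minimum count 10, minimum total 15), TMM scaling, the quasi-likelihood F test and Benjamini-Hochberg adjustment at 0.05. For the cell types all 12 libraries entered, with a covariate for genotype class. For the genotypes a fit of 4 groups used 8 libraries and left 4 residual degrees of freedom. The fit functions were also run on simulated counts whose common spread was taken from these data. Changes were set there only in genes above a minimum level, so scarce keratins were not covered. Expected counts were rounded where used.

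The keratins, their role classes and the gene lists were chosen with earlier results of these data known. Values are given for the 3 members of highest mean CPM and for the largest called rise and fall (mean of at least 0.5 CPM) in each role class, for the 3 members of lowest p in each genotype contrast, for Psmb11, and for the 2 called genes of largest change in each list. Other members are given in shorter form. Alternatives changed the scaling (RLE, library size), the tool (DESeq2 1.42.0), the filter, the counts (RSEM), the libraries (each left out, or only those of undisputed genotype), the minimum change (1.5-fold), the covariate, the replicate block and the label that gives the genotype (title, source name). No libraries of the same cell type were alike within counting error. The exact intervals of read ratios and the floors cover counting error only. The intervals of the genotype contrasts use the standard error of the edgeR fit, which includes the spread between libraries.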

Additional observations from a re-analysis of the deposited data

Results flagged for a closer look

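In groups of 6 libraries, 7 of the 100 sets of keratin values (50 genes in 2 cell types) held a library far from the other 5, where chance gives about 1 in 20. All 7 were in mTEC lo. Krt7 had 922.9 CPM in the mTEC lo library 3 whose genotype labels conflict, with 790.3 CPM in the nearest library, and Krt36 had 1.118 CPM there, with 0.8754 CPM in the nearest. Krt15 had 23.72 CPM in WT mTEC lo replicate 3, with 33.09 CPM in the nearest, and in the same library Krt25 had 0.5444 CPM (30 reads) and Krt39 had 0.1089 CPM (6 reads), both above the others. Krt34 had 0.1965 CPM in WT mTEC lo replicate 2 (11 reads) and no read in the other mTEC lo libraries. Krt82 had 0.2329 CPM in Psmb11-deficient mTEC lo replicate 1 (15 reads), with 0.08636 CPM in the nearest.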

How the results depend on the processing

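Between mTEC hi and mTEC lo, 38 keratins were higher and 6 lower under RLE size factors, DESeq2, no filter, no covariate, the 8 libraries with undisputed genotype and with each library left out. RSEM counts gave 36 higher and 6 lower of 47 tested, and a minimum change of 1.5-fold 35 higher and 6 lower. Of the 44 called keratins 41 kept their call and direction under each alternative that tested them (2 had no test with RSEM counts). Of the 6 uncalled genes 3 turned their sign: Krt23 to 0.054 with RLE size factors, 0.272 with library size alone, 0.054 with DESeq2, 0.094 with RSEM counts and 0.007 over 8 libraries; Krt15 to 0.022, 0.243, 0.021, 0.056 and 0.01 under the same settings; Krt8 to 0.205 with library size alone and 0.004 with RSEM counts. With a library left out Krt23 ranged from -0.087 to 0.049 and Krt15 from -0.125 to 0.009.

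Between genotypes in mTEC lo, fits with no filter called 4 keratins (Krt34, Krt73, Krt76, Krt82), leaving out Psmb11-deficient mTEC lo replicate 1 called 2 (Krt73, Krt87) and leaving out replicate 2 called 1 (Krt76). The interaction called 1, Krt28, with no filter. Each other alternative called 0; the cause of the differences was not tested.

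Titles number libraries from 1 to 3 in each group. Same-numbered mTEC hi and mTEC lo libraries correlated at 0.004 to 0.35 in their deviations from the cell type means. Differently numbered libraries of the same title genotype correlated at -0.256 to 0.299. Each mTEC hi library titled Psmb11-deficient correlated best with its own number, but those titled WT 2 and WT 3 did not. The ranges overlapped, and the numbers were not taken as pairs. With the number as a replicate block the counts stayed at 44 called keratins between the cell types, 38 higher and 6 lower, and 0 in each genotype contrast. Keratins with few reads in mTEC lo limit the genotype comparison there.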

Other observations

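A pseudogene of Krt8, Krt8-ps on chromosome 7, was chosen after its values were seen, and reads may be shared between it and Krt8. It had 3.52 and 3.64 CPM in Psmb11-deficient mTEC hi, against 1.96 and 2.0 CPM in WT mTEC hi, while the mTEC hi libraries with conflicting labels had 3.80 CPM (title Psmb11-deficient) and 2.15 CPM (title WT). With genotype from the undisputed labels the log2 fold change was 0.86 (edgeR adjusted p = 1.0), and with genotype from the title it was 0.85 over all 6 mTEC hi libraries (edgeR adjusted p = 0.416), against 0.24 with genotype from source name and strain (edgeR adjusted p = 0.999). In mTEC lo it had 1.82 and 1.59 CPM in Psmb11-deficient libraries and 1.68 and 2.0 CPM in WT libraries. Krt8 itself had a log2 fold change of -0.02 between genotypes in mTEC hi.

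In the 4 libraries whose labels conflict, Psmb11 had 1.12 CPM (mTEC hi, title Psmb11-deficient), 1.26 CPM (mTEC lo, title Psmb11-deficient), 8.16 CPM (mTEC hi, title WT) and 7.10 CPM (mTEC lo, title WT).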
